A study of Mus musculus with 66 samples.

Results

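Sorted MUT progenitors of the ventral spinal cord at day 11 of differentiation were compared with NFIA-positive WT progenitors at day 9, to ask whether late MUT cells resemble WT cells of 2 days before. The rule took the libraries labelled MUT, D11 and NFIAn of the p2 and pM domains (4 libraries, replicates 2 and 3 of each) and those labelled WT, D9 and NFIAp of the same domains (6 libraries, replicates 1 to 3 of each). These are 10 of the 66 libraries of the series. The WT, D11 and NFIAp libraries of p2 and pM (4 libraries) are given beside them. NFIAp and NFIAn are read here as the positive and negative gate of a stain for the transcription factor NFIA. Cells of either genotype were mouse embryonic stem cells grown in 10 ng/ml bFGF, then with 5 µM of the GSK3 inhibitor CHIR99021 from day 2. They received 100 nM retinoic acid (RA) and 10 nM of the hedgehog agonist SAG from day 3, and SAG alone from day 5. They were fixed in glyoxal, stained and sorted at 10000 to 15000 cells per population, and polyadenylated RNA was sequenced. Which gene is mutated in MUT, and in how many clones, is not given by the labels. Genotype, day and NFIA gate all differ between the sides of this comparison, so their parts cannot be told apart. Whether replicates came from different cultures is not stated, and p-values therefore reflect the variation among these libraries alone, which may be technical.

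NFI proteins (NFIA, NFIB, NFIC and NFIX) are DNA-binding factors that appear in spinal cord progenitors when neurogenesis gives way to gliogenesis, and NFIA marks that switch. p2 progenitors, which express Foxn4 and Vsx1, make V2 interneurons and later astrocytes. Progenitors of the motor neuron domain, pM here, express Olig2 and make motor neurons and later oligodendrocytes. Over the same period progenitors of every domain lose early factors such as HMGA2 and divide less.

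The values are normalised read counts, and reads recovered from them came to 20.9 to 28.7 M per library. Olig2, the pM marker, had 109 and 67.6 in p2 and 1139 and 658 in pM in MUT. It stood at 85.5, 30.0 and 77.1 in WT D9 p2 against 4544, 1262 and 902 in WT D9 pM, so the domains were told apart as labelled. Foxn4, the p2 marker, had 293 and 440.0 in p2 and 51.3 and 55.0 in pM in MUT and at most 29.4 in WT D9 pM. Libraries differed within groups. The summed normalised counts were 26.6 to 31.8 M in replicates 2 and 3 of WT D9 NFIAp against 21.3 to 23.7 M in its replicate 1. Ribosomal protein genes took 7.87 to 12.3% against 5.21 to 6.05%. In MUT D11 they took 6.21 to 7.97% in the replicate 2 libraries and 2.62 to 3.49% in the replicate 3 libraries. The part of these differences in the results was not tested. In bulk RNA, fewer cells of a type and less RNA per cell cannot be told apart.

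All NFI genes were compared first. Nfia RNA was at 1699 and 2177 in MUT p2 and 1892 and 1991 in MUT pM, although these cells came from the NFIA-negative gate. In WT D9 NFIAp the lowest, median and highest of 6 libraries were 408, 569.9 and 2304, and the highest, replicate 1 of pM, lay above every MUT library. The log2 difference was 1.40 ± 0.41 (MUT minus WT, ± SE, n = 4 and 6, limma adjusted p = 0.0437). With only replicate 1 of WT D9 it was 0.26 and no longer passed. Nor did it pass in a fit that estimated a correlation between libraries sharing genotype, day and number (adjusted p = 0.0833 with an estimated correlation). Nfib had 1488 and 1243 in p2 and 1401 and 1451 in pM in MUT, 316, 408 and 774 as the lowest, median and highest of WT D9. WT D11 had 2652 and 1752 in p2 and 3136 and 2539 in pM. The MUT libraries thus lay above every WT D9 library and below every WT D11 library. The log2 differences were 1.59 ± 0.26 from WT D9 (limma adjusted p = 0.00846) and -0.82 ± 0.21 from WT D11 (limma adjusted p = 0.152). The second did not pass, nor did it in the correlated fit (adjusted p = 0.51 with an estimated correlation). It passed with the replicate number as a block (limma adjusted p = 0.018). Nfix passed as higher than WT D9 (2.67 ± 0.73, limma adjusted p = 0.0366), and Nfic did not (1.67 ± 0.58, limma adjusted p = 0.0714). The Nfix call was lost in the correlated fit (adjusted p = 0.114 with an estimated correlation), and Nfib kept its own (0.027). The RNA of no NFI gene was lost in the MUT libraries.

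Against WT D9 NFIAp, 848 of 14092 genes were higher in MUT D11 (6.02%) and 769 were lower (5.46%), at a limma adjusted p under 0.05, where 4542 genes had an unadjusted p under 0.05. Against WT D11 NFIAp, 8 of 14041 genes were higher (0.0570%) and 70 were lower (0.499%). Same-numbered libraries deviated together in that comparison, and with the replicate number as a block 145 genes were higher and 408 lower. The fit against WT D11 held 8 libraries and that against WT D9 held 10, so their counts are not alike in power. With both WT D9 replicate 2 libraries left out, which gives sides of equal size, 31 genes passed against WT D9. WT itself, from D9 to D11 in the NFIA-positive gate, had 1065 of 14172 genes higher (7.51%) and 769 lower (5.43%). List counts below are to be read beside the shares of their own comparison. The first and second comparisons share the MUT libraries and the first and last share the WT D9 libraries, so each one's values are given side by side and not as independent evidence. The median log2 difference over all genes was 0.06, -0.03 and 0.06 in these comparisons. The count of 1617 against WT D9 depended on single libraries: it was 252 without replicate 3 of MUT pM, 266 without replicate 3 of MUT p2, and 459 to 604 without either the replicate 2 or the replicate 3 library of WT D9 in either domain. It rose to 3065 without replicate 2 of MUT p2 and fell to 2 when replicate 1 alone stood for WT D9. All of the 1607 called genes that could be tested there kept their sign, in libraries that both settings share. The 2 genes that passed there were Grb10 and Msx3. With the estimated correlation (0.34 against WT D9) 319 genes passed against WT D9 and 27 against WT D11. Where a call named in the text was lost there, its adjusted p is given.

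Over the 14092 genes tested against WT D9 and all WT D9 replicates, MUT D11 libraries were by median no closer to WT D9 than to WT D11. Genes that reached the filter only through WT D11 libraries are not in these distances. In p2 the root mean square log2 difference between a MUT D11 library and a WT D11 library of its domain was 1.01 to 1.35 (median 1.17), and to a WT D9 NFIAp library it was 1.07 to 1.57 (median 1.26). In pM the same distances were 1.12 to 1.47 (median 1.34) and 1.43 to 1.78 (median 1.51). The MUT D11 replicates of a domain were 1.26 apart in p2 and 1.39 apart in pM, so these ranges overlap with the spread between replicates. To replicate 1 of WT D9 alone, MUT replicates 2 and 3 lay at 1.13 and 1.07 in p2 and at 1.43 and 1.52 in pM. Both p2 values are below the WT D11 median, so in p2 the order of the medians depended on replicates 2 and 3 of WT D9. MUT D9 libraries lay at a median of 1.48 in p2 (1 library) and 1.33 in pM (2 libraries). Day 5 libraries were the farthest by median in p2 and in pM (1.81 for WT in either domain).

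**Figure D1:**
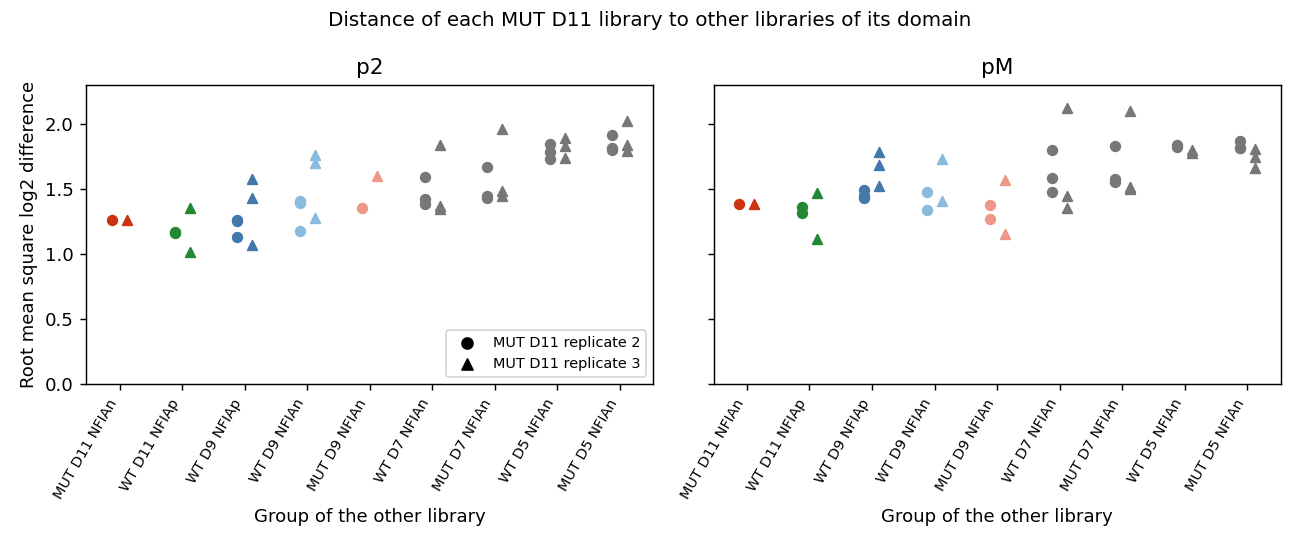
Root mean square log2 difference over the genes tested against WT D9 (vertical axis) between each MUT D11 library and every library of the named group in the same domain, p2 left and pM right. Each point is 1 pair of libraries, circles for MUT D11 replicate 2 and triangles for replicate 3. WT D11 pairs lie at 1.01 to 1.35 in p2 and 1.12 to 1.47 in pM, and overlap with WT D9 NFIAp pairs at 1.07 to 1.57 and 1.43 to 1.78.

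Some of the genes of smallest p against WT D9 overlapped with WT D11, and Grb10, Hnrnph1, Ccdc13, Sparcl1 and Rhoc did not. Ntrk2, the receptor for BDNF, had 2928 and 2360.3 in MUT p2 and 3736 and 3591 in MUT pM, against 394, 859 and 1218 as the lowest, median and highest of WT D9. No MUT library overlapped with WT D9 (log2 difference 2.01 ± 0.21, limma adjusted p = 0.000735). In WT D11 it was at 4098 and 3200.4 in p2 and 3171 and 3910.1 in pM, and the difference from WT D11 was -0.20 ± 0.21 with a 95% interval of -0.67 to 0.26. Mlc1, an astrocyte membrane protein, had 732 and 446 in p2 and 1777 and 1219 in pM in MUT against 73.3, 197 and 278 in WT D9, again without overlap (2.48 ± 0.32, limma adjusted p = 0.00372). Its MUT libraries overlapped with those of WT D11, at 788 and 646 in p2 and 988 and 1221 in pM. Sparcl1, a matrix protein secreted by astrocytes, had 3948 and 2535 in p2 and 2360.4 and 3899.9 in pM in MUT, above all of WT D9 (274, 645 and 1101) and below all of WT D11 (4984 and 5339 in p2 and 4694 and 6244 in pM). Its log2 differences were 2.48 ± 0.29 from WT D9 (limma adjusted p = 0.00187) and -0.77 ± 0.24 from WT D11 (limma adjusted p = 0.255).

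Hopx, a homeodomain protein of late radial glia, had 5193 and 1407 in p2 and 6622 and 3596 in pM in MUT, all above WT D9 (585, 993 and 1282). The replicate 2 library was the higher one in each domain, and in WT D11 the values were 8454 and 5803 in p2 and 15454 and 13157 in pM. Hopx was 1.97 ± 0.30 higher than WT D9 on the log2 scale (limma adjusted p = 0.00694), where WT itself rose by 3.43 from D9 to D11. Msx3, a homeobox gene of dorsal progenitors, had 306 and 497 in p2 and 329.5 and 192 in pM in MUT against 1.47, 17.8 and 22.5 in WT D9 (4.68 ± 0.55, limma adjusted p = 0.00187). In WT D11 Msx3 was at 433 and 729 in p2 and 70.4 and 117 in pM, so that both MUT pM libraries lay above both WT D11 pM libraries and the p2 libraries overlapped. Of the 10 dorsal progenitor genes tested, 2 were higher than in WT D9 (Msx3 and Olig3) and none lower, beside 6.02% and 5.46% of all genes. The list's median was 1.97. Olig3 lost its call in the correlated fit (adjusted p = 0.0584 with an estimated correlation). Against WT D11 none passed and the median was 0.06.

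**Figure D2:**
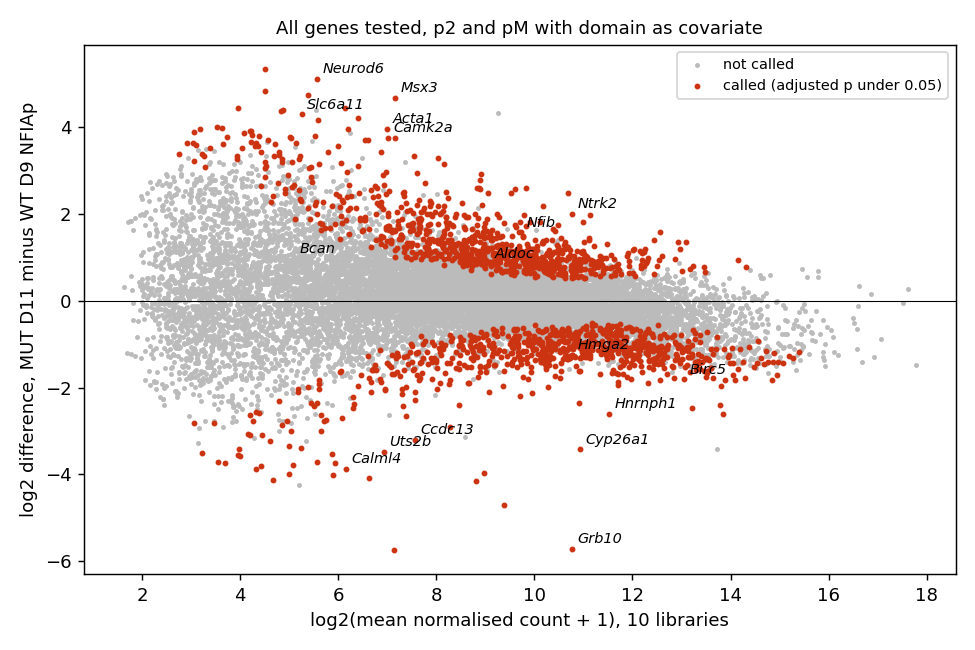
Log2 difference between MUT D11 and WT D9 NFIAp (vertical axis) against the log2 mean normalised count + 1 over the 10 libraries (horizontal axis). Each point is 1 of 14092 genes, red where the limma adjusted p is under 0.05, with some genes named. Grb10 is the red point near -5.71 at a high count, and Bcan and Aldoc are grey points named for their levels in WT D11.

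Genes lower in MUT D11 than in WT D9 included the RA pathway genes Cyp26a1 and Crabp2. Cyp26a1 encodes the enzyme that degrades RA. Its values were 554 and 126 in MUT p2 and 528 and 77.4 in MUT pM, against 1028, 1324 and 1687 in WT D9 p2 and 4896, 4060.2 and 5148 in WT D9 pM. The log2 difference was -3.42 ± 0.56 (limma adjusted p = 0.00846). The replicate 2 libraries were the higher ones in MUT, and the MUT libraries overlapped with WT D11 (488 and 206 in p2 and 608 and 406 in pM). Crabp2, which carries RA in the cell, had 3967 and 4451 in p2 and 2655 and 3055 in pM in MUT and 12081, 23560.0 and 29572 as the lowest, median and highest of WT D9. It was lower by a log2 difference of -2.60 ± 0.29 (limma adjusted p = 0.00171) without overlap, and differed from WT D11 by -0.11 ± 0.19 (95% interval -0.53 to 0.30). Sfrp2, a secreted Wnt antagonist, was at 6198 and 8504 in p2 and 1488 and 2354 in pM in MUT and at 13234, 20410.0 and 28155 in WT D9 (-2.39 ± 0.35, limma adjusted p = 0.00582). WT D11 had 3712 and 3564 in p2 and 1825 and 2375 in pM. Uts2b, which encodes a small peptide of the urotensin family, had 17.4 and 6.28 in p2 and 26.9 and 13.3 in pM in MUT against 85.8, 187 and 315 in WT D9 (-3.48 ± 0.51, limma adjusted p = 0.0056). WT D11 had 33.0 and 16.5 in p2 and 14.7 and 27.2 in pM.

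Hmga2, a chromatin protein of young progenitors, had 847 and 893 in p2 and 1018 and 1051 in pM in MUT, below every WT D9 library (1874, 2182 and 2957). The log2 difference was -1.25 ± 0.16 (limma adjusted p = 0.00372). WT D11 stood at 564 and 532 in p2 and 1402 and 952 in pM, below both MUT libraries in p2 and on either side of them in pM. Hmga2 was the 1 gene of 15 early timing genes tested that passed as lower than WT D9, beside 5.46% of all genes. The median of the list was -0.56, and in WT from D9 to D11, 6 of 16 passed as lower (median -0.97). Birc5, a protein of the chromosomal passenger complex in mitosis, had 6117 and 2998 in p2 and 2916 and 2074 in pM in MUT and 8851, 10307 and 16181 in WT D9, without overlap (-1.81 ± 0.23, limma adjusted p = 0.00372). Of 30 genes of G2 and M phase, 12 were lower in MUT D11 than in WT D9 and none was higher, beside 5.46% and 6.02% of all genes. The list's median was -0.78 against 0.06 over all genes tested. With the estimated correlation 5 of the 30 passed as lower. Cdk1, the mitotic kinase (-1.27 ± 0.25), and Cenpa, the centromeric histone (-1.22 ± 0.24), were among them (limma adjusted p = 0.0148 and 0.0138). In WT from D9 to D11, 24 of the 30 were lower with a median of -1.11. MUT D11 against WT D11 gave 0 calls and a median of 0.22. The 30 S phase genes had 6 lower and 1 higher (Mcm6) against WT D9, beside 5.46% and 6.02% of all genes. The list's median was -0.27, and 3 were lower with the estimated correlation, where Mcm6 had an adjusted p of 0.0859. WT from D9 to D11 had 21 lower and none higher with a median of -0.81. Gins2, a subunit of the replicative helicase, was lowest in the replicate 3 libraries of MUT (3297 and 1522 in p2 and 2916 and 970.2 in pM, against 3841, 6798 and 9115 in WT D9). It differed by -1.64 ± 0.34 (limma adjusted p = 0.0168). Nes, the intermediate filament nestin of progenitors, was also lower (959.6 and 1035 in p2 and 1664 and 1352 in pM in MUT, 1998, 2879.5 and 3592 in WT D9, -1.15 ± 0.15, limma adjusted p = 0.00398).

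**Figure D3:**
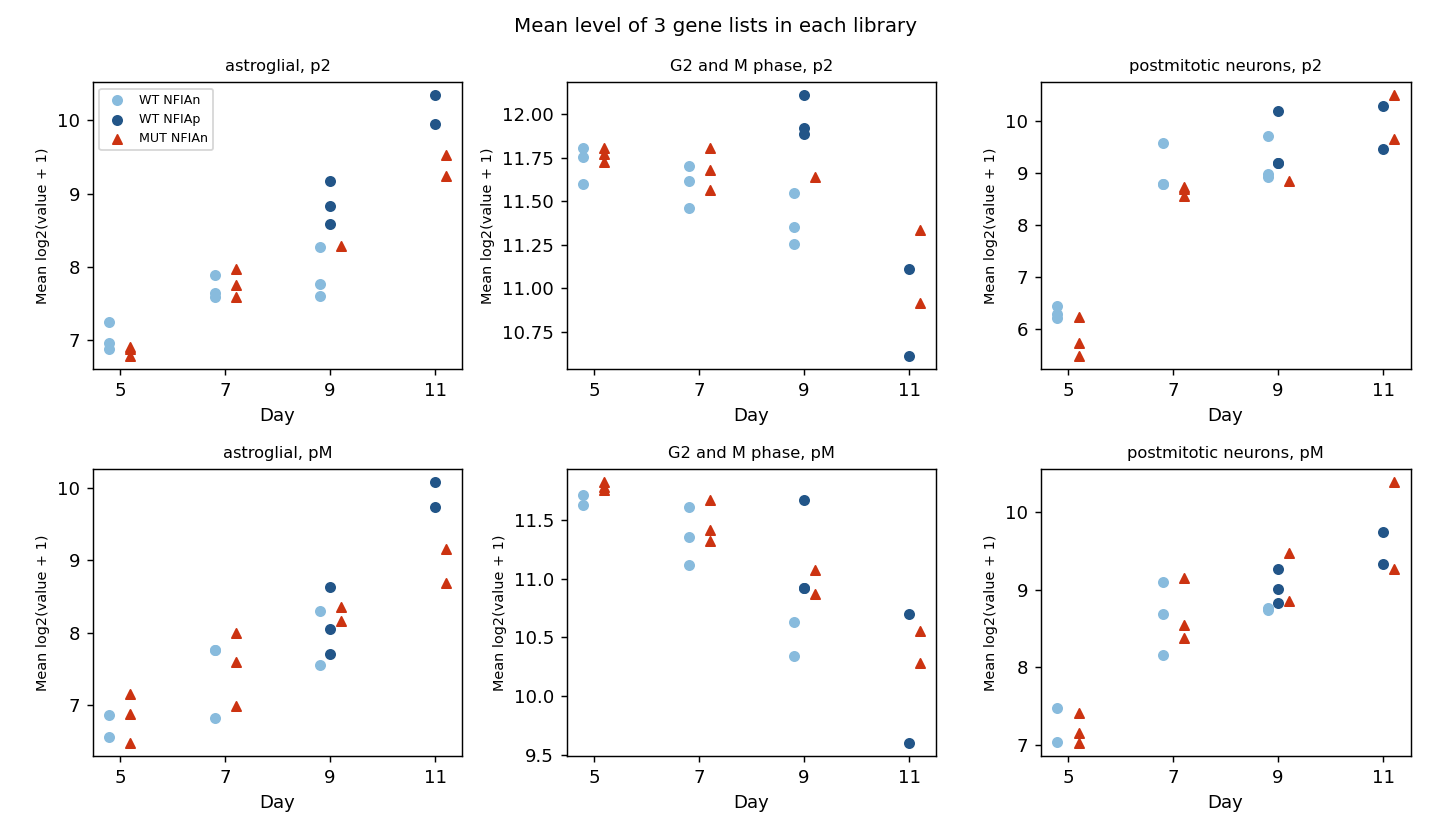
Mean log2(normalised count + 1) of the astroglial, the G2 and M phase and the postmitotic neuron genes (vertical axes) by day (horizontal axis), p2 above and pM below. Means are over the list genes tested against WT D9. These are 26 astroglial genes, where 29 were tested against WT D11, so some that passed the filter only through WT D11 are left out. Each point is 1 library, light blue for WT NFIAn, dark blue for WT NFIAp and red triangles for MUT NFIAn. At D11 the astroglial mean is 8.69 to 9.52 in MUT and 9.73 to 10.3 in WT, and every MUT D11 library has a lower G2 and M phase mean than the WT D9 NFIAp libraries of its domain (10.3 to 11.3 in MUT and 10.9 to 12.1 in WT D9).

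Other genes in MUT D11 lay nearer to WT D9 than to WT D11. Most named here are the genes of smallest p against WT D11, and were chosen after their values were seen. Bcan, which encodes the matrix proteoglycan brevican, had 42.5 and 56.5 in MUT p2 and 28.1 and 32.5 in MUT pM, and 3.54, 20.6 and 92.1 as the lowest, median and highest of WT D9. These ranges overlapped, with a log2 difference of 0.97 ± 0.66 and a 95% interval of -0.45 to 2.39. In WT D11 it was at 1227 and 1093 in p2 and 985 and 1309 in pM, a difference of -4.86 ± 0.29 (limma adjusted p = 2.00e-05). Aldh1l1, a folate enzyme used as an astrocyte marker, had 78.4 and 79.5 in p2 and 2.44 and 4.16 in pM in MUT and 1.47, 34.5 and 100.7 in WT D9 (95% interval of the log2 difference -2.35 to 1.09). WT D11 had 1477 and 969.9 in p2 and 514 and 542 in pM (-5.44 ± 0.57, limma adjusted p = 0.00125). Slc15a2, a peptide transporter of astrocytes, had 9.80 and 15.3 in p2 and 114 and 83.3 in pM in MUT, 32.5, 55.6 and 320.0 in WT D9 and 1595 and 891 in p2 and 2485 and 1700.0 in pM in WT D11. The log2 differences were -1.12 ± 0.49 from WT D9 and -5.44 ± 0.44 from WT D11 (limma adjusted p = 0.135 and 0.000236). Ndrg2, a further astrocyte gene, had 185 and 473 in p2 and 168 and 309 in pM in MUT, 41.2, 128 and 258 in WT D9 and 2829 and 2699 in p2 and 3536 and 3652 in pM in WT D11. It differed by 1.06 ± 0.42 and -3.59 ± 0.32 (limma adjusted p = 0.102 and 0.000427). Aldoc, a glycolytic enzyme of astrocytes, had 786 and 1169 in p2 and 300.2 and 684 in pM in MUT, overlapping with WT D9 (173, 411 and 778; 95% interval of the difference 0.20 to 1.51). It was below all of WT D11 (7321 and 5048 in p2 and 1639.9 and 1749.7 in pM), by -2.28 ± 0.30 (limma adjusted p = 0.00494). For Bcan, Aldh1l1, Slc15a2, Ndrg2 and Aldoc the MUT D11 and WT D9 sides overlapped over both domains, and no MUT library reached any WT D11 library. In p2 both MUT libraries lay above every WT D9 library for Aldoc and below every one for Slc15a2. Overlap or a missed call does not show that levels were equal.

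Thrsp, a regulator of lipid synthesis, had at most 3.49 in MUT D11 and 13.3 in WT D9, and 522 and 313 in p2 and 381 and 274 in pM in WT D11 (-7.67 ± 0.66, limma adjusted p = 0.00032). Its fitted value depends on the pseudocount because the MUT libraries are at or near 0. Cbs, the enzyme of the first step from homocysteine to cysteine, had 2.18 and 20.2 in p2 and 89.1 and 35.8 in pM in MUT, 0, 7.53 and 83.2 in WT D9 and 578 and 245 in p2 and 2458 and 1885 in pM in WT D11. Mmd2 was at 241 and 219.6 in p2 and 522 and 323 in pM in MUT, inside the WT D9 range (83.3, 362 and 906), with 1598 and 1319 in p2 and 2834 and 2918 in pM in WT D11 (-2.73 ± 0.22, limma adjusted p = 0.000236). Mgst1, a membrane-bound glutathione transferase, was lower in MUT (2853 and 1574 in p2 and 1698 and 1250.0 in pM) than in WT D9 (2906, 3702 and 4465) and than in WT D11 (18519 and 11137 in p2 and 17168 and 12457 in pM). No library overlapped. The differences were -1.08 ± 0.22 (limma adjusted p = 0.0156) and -3.04 ± 0.28 (limma adjusted p = 0.000537). In the other direction, Lhx3, a LIM homeobox gene of motor neurons and V2a interneurons, had 792 and 806 in p2 and 2334 and 1746 in pM in MUT, 746, 785 and 689.8 in WT D9 p2 and 1945, 2969 and 3752 in WT D9 pM. The difference had a 95% interval of -0.63 to 0.28. In WT D11 it was at 311 and 424 in p2 and 321 and 396 in pM, so MUT was higher by 1.82 ± 0.30 (limma adjusted p = 0.0198, and 0.145 with an estimated correlation). Moxd1, a monooxygenase-like protein (9127 in WT D9, 8796 in MUT D11 and 3611 in WT D11, as means), and Car14, a carbonic anhydrase (3949, 4770 and 1948), were also lower in WT D11 than in MUT D11 by these means, and were chosen after their values were seen.

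**Figure D4:**
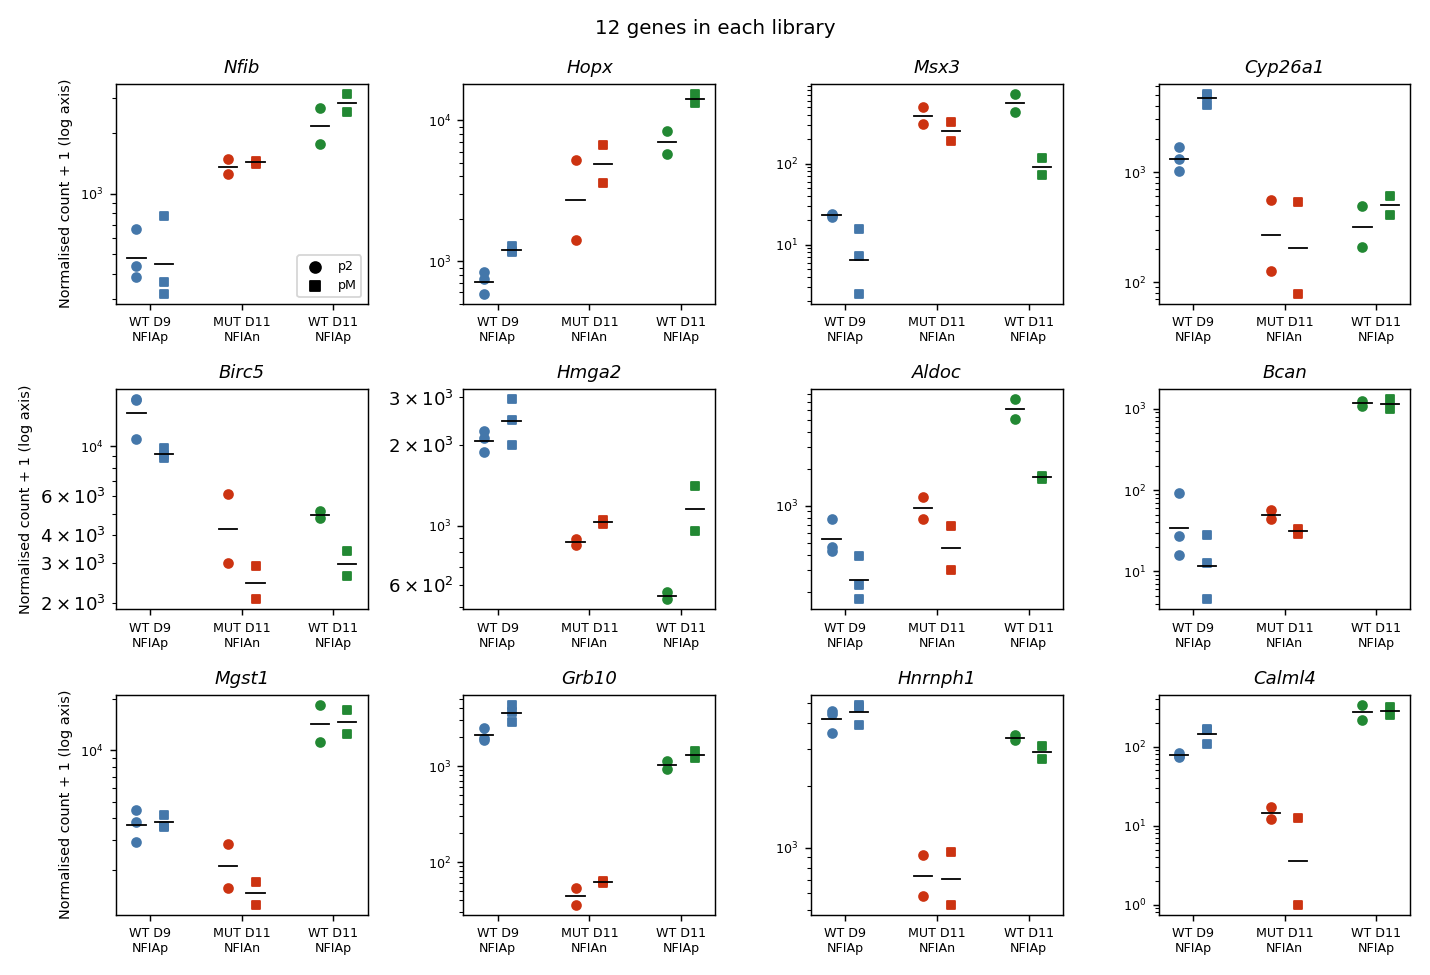
Normalised count + 1 (vertical log axes) of 12 genes in each library of WT D9 NFIAp (blue), MUT D11 NFIAn (red) and WT D11 NFIAp (green), circles for p2 and squares for pM, with bars at the mean of log2 values. Nfib, Hopx and Msx3 lie above WT D9, Bcan and Aldoc overlap with WT D9 and lie below WT D11, and Grb10, Hnrnph1 and Calml4 lie below both WT days.

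Promoter sequences of genes far from their WT D11 level are shown because NFI proteins bind DNA at the half-site TTGGCA and at TTGGC and GCCAA separated by 5 bases. RefSeq windows (GRCm38.p6) of the 250 bases before the start were searched on both strands; TGCCAA is the half-site read on the other strand. Of the 12 genes of smallest p against WT D11, 11 had a window and 5 of these held a half-site (Mmd2, Slc15a2, Thrsp, Mgst1 and Tmem176b), which stands in capitals in the 3 windows that follow, written 5′ to 3′ in the direction of the gene.
Mgst1 (chr6:138140277-138140526, plus strand): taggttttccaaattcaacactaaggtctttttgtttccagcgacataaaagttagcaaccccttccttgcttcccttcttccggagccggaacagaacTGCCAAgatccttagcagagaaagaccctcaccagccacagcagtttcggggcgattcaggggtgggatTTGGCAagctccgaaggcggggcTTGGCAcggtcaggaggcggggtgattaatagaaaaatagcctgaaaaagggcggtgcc
Slc15a2 (chr16:36784963-36785212, minus strand): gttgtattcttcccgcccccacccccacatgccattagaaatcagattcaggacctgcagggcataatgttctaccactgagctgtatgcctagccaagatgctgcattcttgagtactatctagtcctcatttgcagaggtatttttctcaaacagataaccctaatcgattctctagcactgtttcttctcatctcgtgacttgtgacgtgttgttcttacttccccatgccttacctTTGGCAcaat
Mmd2 (chr5:142608753-142609002, minus strand): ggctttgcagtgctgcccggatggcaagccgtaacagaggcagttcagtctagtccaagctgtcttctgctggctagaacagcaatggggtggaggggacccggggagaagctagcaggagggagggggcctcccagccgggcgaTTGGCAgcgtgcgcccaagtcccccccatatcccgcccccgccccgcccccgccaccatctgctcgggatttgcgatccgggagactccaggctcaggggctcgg

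Mgst1 held 3 half-sites, at 151, 82 and 59 bases before the start, Slc15a2 held 1 at 10 bases and Mmd2 held 1 at 105 bases. Of all 32851 windows, 12.3% held a half-site, and of the 10549 tested genes with a window in this comparison, 11.8% did. Of the 52 genes lower than WT D11 with a window, 13 held one (25%). Against WT D9 the shares were 14.8% of 629 genes called higher, 11.3% of 595 called lower and 11.8% of all 10586 tested. The longer form was found for 3 of the 10586 genes tested against WT D9 (0.0283%) and for none of the called genes. With so low a share, its absence among called genes tells nothing about them. These are letter matches and not measured binding.

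Further genes lay apart from both WT days. Grb10, an imprinted gene for an adaptor of growth factor receptors (chromosome 11, 11930508 to 12038683, minus strand, GRCm38), had the smallest p of all genes against WT D9. Its values were 34.9 and 52.99 in MUT p2 and 62.2 and 59.1 in MUT pM, against 1886, 2659 and 4358 as the lowest, median and highest of WT D9. WT D11 had 922 and 1115 in p2 and 1428 and 1215 in pM. Every WT library was far above every MUT library. The log2 differences were -5.71 ± 0.21 from WT D9 (limma adjusted p = 4.84e-09) and -4.47 ± 0.27 from WT D11 (limma adjusted p = 2.00e-05). Over the alternatives run, Grb10 stayed between -5.98 and -5.53 and was called in all 24. Ddc, the aromatic amino acid decarboxylase gene that lies beside Grb10 on chromosome 11 (11814101 to 11898144, minus strand), was not called against WT D9. It had 912 and 394 in p2 and 3196 and 2135 in pM in MUT and 524, 2057 and 5050.3 in WT D9 (-0.47 ± 0.27, 95% interval -1.04 to 0.11). Ddc was higher in MUT than in WT D11 (40.1 and 91.9 in p2 and 181 and 163 in pM; 3.60 ± 0.36, limma adjusted p = 0.000909). Grb10 in MUT was already low on earlier days, with group means of 197 in p2 and 216 in pM at D5, against 2176 and 2167 in WT D5.

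Hnrnph1, a regulator of splicing (chromosome 11, 50376990 to 50386528, plus strand), had 579 and 919 in p2 and 527 and 949 in pM in MUT, 3601, 4514 and 4934 in WT D9 and 3519 and 3319 in p2 and 3119.5 and 2691 in pM in WT D11. The sides did not overlap. The differences were -2.60 ± 0.21 (limma adjusted p = 5.89e-05) and -2.13 ± 0.24 (limma adjusted p = 0.00192). Hnrnph1 has a close paralog, Hnrnph2, and counting could split reads between them. At D5 its group means were 1565 in MUT p2 and 3785 in WT p2, and 1298 and 3270.3 in pM. Ccdc13, a coiled-coil protein of centriolar satellites, had 42.5 and 19.5 in p2 and 35.4 and 29.1 in pM in MUT against 228, 288 and 349 in WT D9 (-3.20 ± 0.32, limma adjusted p = 0.000626). WT D11 had 413 and 149 in p2 and 253 and 112 in pM. The difference of Ccdc13 from WT D11 was -2.71 (limma adjusted p = 0.036). It did not pass in the correlated fit (adjusted p = 0.146 with an estimated correlation). Calml4, a calmodulin-like protein, had 16.3 and 11.2 in p2 and 0 and 11.7 in pM in MUT, 73.1, 94.3 and 167 in WT D9 and 339 and 215 in p2 and 319.6 and 252 in pM in WT D11. It was lower than on either WT day (-3.87 ± 0.74 and -5.27 ± 0.78, limma adjusted p = 0.0126 and 0.0107). Rbm3, a cold-inducible RNA-binding protein, and Rhoc, a small GTPase, were lower too, by -2.47 ± 0.35 and -1.52 ± 0.20 from WT D9 and by -1.95 ± 0.34 and -1.27 ± 0.19 from WT D11. Both were chosen after their values were seen. The differences of Calml4, Rbm3 and Rhoc from WT D11 did not pass in the correlated fit (adjusted p = 0.0785, 0.0671 and 0.0688 with an estimated correlation), nor did that of Calml4 from WT D9 (0.0506). Acta1, the skeletal muscle actin gene, was higher than both WT days, with 113 and 252 in p2 and 444 and 298 in pM in MUT, 2.94, 14.8 and 60.9 in WT D9 and 16.9 and 55.0 in p2 and 54.7 and 45.6 in pM in WT D11. It differed by 3.97 ± 0.82 and 2.63 ± 0.46 (limma adjusted p = 0.0163 and 0.0276). The second did not pass in the correlated fit (adjusted p = 0.186 with an estimated correlation).

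Among the 27 Hox genes tested, which set position along the body axis, 6 were higher in MUT D11 than in WT D9 (Hoxa6, Hoxb5, Hoxb6, Hoxc4, Hoxc5 and Hoxd3) and 2 were lower (Hoxa9 and Hoxc8). Of all genes 6.02% were higher and 5.46% lower. The Hox median was -0.04. In the correlated fit Hoxb5, Hoxb6 and Hoxc8 passed, and the other 5 had an adjusted p of 0.0656 (Hoxa9) to 0.0983 (Hoxd3) with an estimated correlation. Hoxb5 had 1038 and 1538 in p2 and 1556 and 1232 in pM in MUT and 269, 401 and 588 in WT D9 (1.75 ± 0.24, limma adjusted p = 0.00398). Hoxc8 had 260.3 and 203 in p2 and 109 and 198 in pM in MUT, below all of WT D9 (514, 581 and 912) and of WT D11 (746 and 1374 in p2 and 837 and 1174 in pM). The differences were -1.75 ± 0.27 and -2.44 ± 0.31 (limma adjusted p = 0.0064 and 0.00474). Hoxa9 had 31.6 and 42.5 in p2 and 8.54 and 12.5 in pM in MUT and 58.8, 120.4 and 175 in WT D9 (-2.37 ± 0.53, limma adjusted p = 0.0192). WT D11 had 125 and 401 in p2 and 128 and 280.3 in pM. Against WT D11, Hoxa9 and Hoxc8 were the 2 Hox genes that passed, both lower, beside 0.499% of all genes. Hoxa9 lost that call in the correlated fit (adjusted p = 0.0944 with an estimated correlation), and with the replicate block 4 Hox genes were lower. From D9 to D11 WT had 4 higher (Hoxa5, Hoxa6, Hoxb5 and Hoxb6) and none lower.

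The astroglial list split between these sets. Of 26 genes tested against WT D9, 4 were higher in MUT D11 (Slc1a3, Atp1b2, Mlc1 and Sparcl1) and none lower, beside 6.02% and 5.46% of all genes. The list's median was 0.60. Slc1a3 and Atp1b2 lost their calls in the correlated fit (adjusted p = 0.0634 and 0.115 with an estimated correlation). With replicate 1 alone for WT D9 none of the list passed and the median was 0.25. Against WT D11, 5 of 29 were lower, among them Aldoc, Aldh1l1 and Bcan, and none higher, beside 0.499% and 0.0570% of all genes. The list's median there was -0.66, and 3 were lower with the estimated correlation. WT from D9 to D11 had 10 of 29 higher with a median of 1.44. Slc1a3, the glutamate transporter GLAST, had 5213 and 5329 in p2 and 4189 and 6747 in pM in MUT, 2025, 2661 and 4351 in WT D9 and 10052 and 7798 in p2 and 8154 and 9310.5 in pM in WT D11. The difference from WT D9 was 0.92 ± 0.22 (limma adjusted p = 0.0259), and 1 MUT library, pM replicate 2, overlapped with WT D9. Slc6a11, a GABA transporter of astrocytes, was outside the list and had 132 and 83.7 in p2 and 37.8 and 70.8 in pM in MUT against 0, 2.49 and 27.5 in WT D9 (4.30 ± 0.75, limma adjusted p = 0.00898). WT D11 had 159 and 147 in p2 and 9.77 and 20.0 in pM. Fabp7, the lipid-binding protein of radial glia, did not pass against WT D9 (-1.51 ± 0.52, limma adjusted p = 0.069), with 71342 and 11861 in p2 and 40846 and 15341 in pM in MUT, the replicate 3 libraries lowest. Of 20 radial glia genes 3 were higher (Slc1a3, Ptprz1 and Hopx) and 1 lower (Nes), beside 6.02% and 5.46% of all genes. The list's median was 0.29, and -0.05 with replicate 1 alone for WT D9. Ptprz1, like Slc1a3, lost its call in the correlated fit (adjusted p = 0.075 with an estimated correlation). The oligodendrocyte lineage had 1 higher (Lhfpl3) and 1 lower (Cnp) of 18, beside 6.02% and 5.46% of all genes. Its median was -0.30, where WT had 1.59 from D9 to D11. The median was 0.81 in pM alone, and Lhfpl3 lost its call in the correlated fit (adjusted p = 0.0979 with an estimated correlation). Cnp, a myelin enzyme, was at 1283 and 1423 in p2 and 1987 and 1376 in pM in MUT and 2655, 3493 and 3874 in WT D9 (-1.16 ± 0.18, limma adjusted p = 0.0064). Olig1, a factor of that lineage, had 1084 and 419.7 in MUT pM, 1147, 1275 and 1182 in WT D9 pM and 6438 and 3586 in WT D11 pM, and passed neither MUT comparison. With the replicate block it was lower than in WT D11 (limma adjusted p = 0.00279), and in the correlated fit it did not pass (adjusted p = 0.308 with an estimated correlation). Of 9 gliogenic JAK-STAT genes, Stat3 and Il6st were higher than in WT D9 and none lower (median 0.47), beside 6.02% and 5.46% of all genes. Il6st lost its call in the correlated fit (adjusted p = 0.137 with an estimated correlation).

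**Figure D5:**
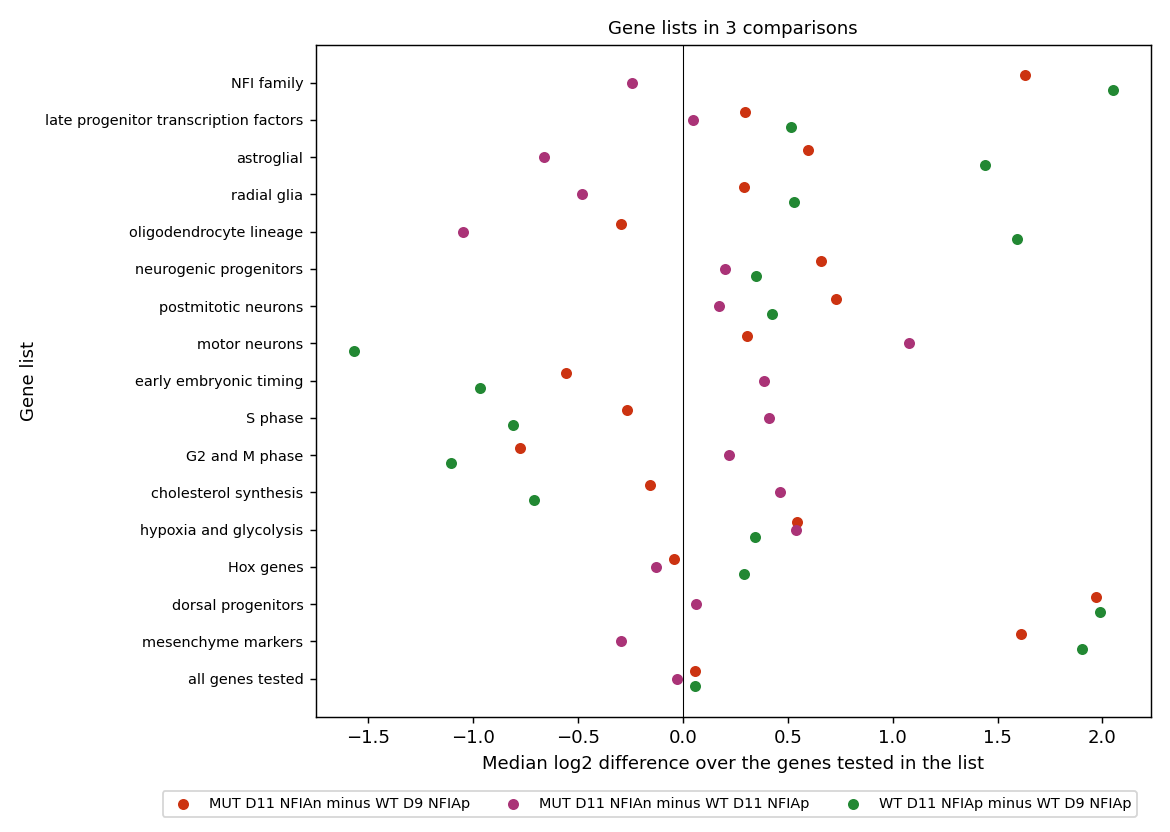
Median log2 difference (horizontal axis) over the tested genes of 16 gene lists and of all genes (rows), in MUT D11 minus WT D9 NFIAp (red), MUT D11 minus WT D11 NFIAp (purple) and WT D11 minus WT D9 NFIAp (green). The astroglial median is 0.60 for MUT D11 and 1.44 for WT D11 against WT D9, and the G2 and M phase medians are -0.78 and -1.11.

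Genes that differed between D9 and D11 in another domain gave a further reading. In WT p1, compared between D9 NFIAn and D11 NFIAp in 5 libraries that enter no other comparison, 26 genes were higher and 4 lower at D11. Day and NFIA gate both changed there, so their parts in these lists cannot be told apart. The summed level of the 26 genes was 26470 to 31708 in MUT D11, against 9640 to 16673 in WT D9 and 52706 to 63998 in WT D11, so by this sum the MUT libraries lay between the WT days with no overlap. MUT D11 is itself from the NFIA-negative gate, so this level is not read as a position in time. The mean log2 level of the same genes, in which abundant genes weigh no more than others, was 7.37 to 8.93 in MUT D11 and 6.49 to 8.25 in WT D9, which overlap, and 9.33 to 10.04 in WT D11. Of the 26, 10 were higher and none lower in MUT D11 than in WT D9 (median 0.88), beside 6.02% and 5.46% of all genes. Against WT D11, 6 of the 26 were lower and none higher, beside 0.499% and 0.0570% of all genes (median -1.01, and 13 lower with the replicate block). In WT from D9 to D11, 19 were higher and 1 lower (median 2.31), beside 7.51% and 5.43% of all genes. With the estimated correlation 6 of the 26 passed as higher than WT D9, and 1 with replicate 1 alone for WT D9 (median 0.49). Of the 4 genes lower at D11 in p1, 2 were lower in MUT D11 than in WT D9 (median -1.32), and against WT D11 none passed (median 1.13).

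Part of the neuronal genes tested passed as higher in MUT D11 than in WT D9. Of 22 neurogenic progenitor genes 7 were higher and none lower (median 0.66), and of 26 genes of postmitotic neurons 5 were higher and none lower (median 0.73). Of all genes, 6.02% were higher and 5.46% lower. With the estimated correlation 1 of each list passed, Eya2 and Nsg2. With replicate 1 alone for WT D9 neither list had a call, and the medians were 0.64 and 0.27. Against WT D11 neither list had a call, with medians of 0.20 and 0.17, and with the replicate block 1 neurogenic and 2 postmitotic genes were higher. Eya2, a transcriptional cofactor, had 301 and 255 in p2 and 300.2 and 115 in pM in MUT and 21.3, 29.9 and 100.9 in WT D9 without overlap (2.68 ± 0.49, limma adjusted p = 0.0105). Dll1, a Notch ligand of newborn neurons, had 1369 and 3467 in p2 and 2081 and 4634 in pM in MUT, the replicate 3 libraries highest, and 945, 1196 and 1353 in WT D9 (1.15 ± 0.29, limma adjusted p = 0.0285). Its call was lost in the correlated fit (adjusted p = 0.0632 with an estimated correlation). Nsg2, a vesicle protein of neurons, had 1921 and 1984 in p2 and 1721 and 2806 in pM in MUT and 812, 899 and 1155 in WT D9 (1.14 ± 0.19, limma adjusted p = 0.00846). Neurod6, a factor of maturing neurons, had 243 and 73.2 in p2 and 96.4 and 33.3 in pM in MUT and 0, 1.25 and 8.83 in WT D9 (5.12 ± 0.89, limma adjusted p = 0.00898). Calb2, the calcium-binding protein calretinin, had 41.4 and 56.5 in p2 and 56.1 and 52.5 in pM in MUT and 0, 0 and 8.39 in WT D9 (4.84 ± 0.86, limma adjusted p = 0.00898). Neurod6 and Calb2 overlapped with WT D11, and their fitted differences from WT D9 depend on the pseudocount because WT D9 libraries are at or near 0. The summed level of the 26 postmitotic genes was 56326 to 75933 in MUT D11 and 38611 to 69765 in WT D9. Their mean log2 level was higher in both replicate 3 libraries of MUT than in replicate 2 (10.5 against 9.66 in p2 and 10.4 against 9.27 in pM). The part of neurons in the sorted cells was not tested. In the motor neuron list 1 of 15 genes, Lhx4, was higher than in WT D9 (1.19 ± 0.31, limma adjusted p = 0.031), beside 6.02% of all genes. That call was lost in the correlated fit (adjusted p = 0.0937 with an estimated correlation). The median was 0.31, and -0.44 with replicate 1 alone for WT D9. WT from D9 to D11 had 6 lower, 2 higher and a median of -1.57.

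Of 16 genes of hypoxia and glycolysis 4 were higher than in WT D9 and none lower, beside 6.02% and 5.46% of all genes. The list's median was 0.54. Against WT D11 none passed, with the same median of 0.54 (1 higher and 1 lower with the replicate block). With the estimated correlation 2 of the 16, Pfkl and Bnip3, passed against WT D9. Pfkl, a phosphofructokinase, had 7370.5 and 13006 in p2 and 9788 and 10095 in pM in MUT, above all of WT D9 (2552, 3232 and 4351) and of WT D11 (3404 and 6932 in p2 and 3162 and 6242 in pM). It differed by 1.58 ± 0.22 from WT D9 (limma adjusted p = 0.00455) and 1.09 ± 0.31 from WT D11 (limma adjusted p = 0.211). The second passed with the replicate block (limma adjusted p = 0.00695) and not in the correlated fit (adjusted p = 0.532 with an estimated correlation). Bnip3, a mitochondrial protein induced by low oxygen, had 12226 and 22745 in p2 and 7183 and 14779 in pM in MUT against 4560.3, 4991 and 6504 in WT D9 (1.35 ± 0.26, limma adjusted p = 0.0122). Beside 6.02% of all genes, 3 of 13 hedgehog pathway genes were higher than in WT D9. They were Ptch1, the receptor (1.34 ± 0.40), Gli2, a transcription factor (1.13 ± 0.29), and Scube2, which helps release the ligand (2.47 ± 0.50), with limma adjusted p = 0.0481, 0.0303 and 0.0152. Ptch1 and Gli2 lost their calls in the correlated fit (adjusted p = 0.114 and 0.088 with an estimated correlation). With replicate 1 alone for WT D9 none passed and the list's median was 0.0050, against 0.66. Of these, Scube2 alone had no MUT library inside the WT D9 range. Of 21 cholesterol synthesis genes Dhcr7 was higher and Tm7sf2 and Ebp lower (median -0.16), beside 6.02% and 5.46% of all genes. All 3 calls were lost in the correlated fit (adjusted p = 0.0986, 0.0522 and 0.0696 with an estimated correlation). WT from D9 to D11 had 10 lower, none higher and a median of -0.71. Of 81 ribosomal protein genes 9 were lower than in WT D9 and none higher, beside 5.46% and 6.02% of all genes. The list's median was -1.25, and 1 gene was lower with the estimated correlation. The median was -0.39 with replicate 1 alone for WT D9.

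Markers of other cell types were also counted. Of 14 mesenchyme genes tested, Col1a1 was higher than in WT D9 and none lower, beside 6.02% and 5.46% of all genes. The list's median was 1.61. The Col1a1 call was lost in the correlated fit (adjusted p = 0.0763 with an estimated correlation). With replicate 1 alone for WT D9 the median was 0.45. Their summed level was 1020.3 to 5772 in MUT D11, 262 to 3708 in WT D9 and 1492 to 8042 in WT D11, and Col1a1 was at 50.1 and 396 in p2 and 40.3 and 369 in pM, highest in the replicate 3 libraries of MUT. Of the 10 microglia markers 1 reached the level for testing (Tmem119, not called), and of 7 endothelial and blood, 4 pluripotency, 11 neural crest and 6 ependymal genes tested none passed. Their part in the results was not tested.

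The differences did not pass as dependent on the domain for any gene. The interaction of domain with side gave 0 calls of 14092 in limma, with 610 genes at an unadjusted p under 0.05 and a smallest adjusted p of 0.887. Named by smallest p, Neurog2, the proneural factor, had a difference of 0.74 in p2 and -1.40 in pM, with 2285 and 1559.8 in MUT pM below 4025, 4765 and 6421 in WT D9 pM. Igf2, a growth factor, had -0.66 in p2 and 0.96 in pM, and Slit1, an axon guidance ligand, 1.16 and 4.03. None of these differences between domains passed. Within a domain alone, 1 gene passed in p2 and 22 in pM, with fewer libraries in each fit.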

How the data were processed

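The submitters' processing notes name the genome build mm10 and DESeq2, whose version is not given in the sources used here. As deposited, the signal equals a read count over a size factor of its library: division by the value of 1 read gave whole numbers (within 0.01) for 100% of values. Genes that reached 10 in 2 or more compared libraries were fitted with limma 3.58.1 (variance trend, R 4.3.3) on log2(value + 1) with domain as covariate. P-values are two-sided and Benjamini-Hochberg adjusted over all genes tested, and called means under 0.05. Counts of recovered reads were also fitted with edgeR 4.0.16 and DESeq2 1.42.0. Genes named in the text were picked from the 12 highest and 12 lowest called genes with means of at least 50 and no overlap in either domain. Others came from up to 4 called members of each list, fixed regulators and genes of smallest p. Not every one is printed. Among the highest and lowest, Diras2, Actc1, Faim2, Dtx1, Pcdhgb6, Dpp6, Camk2a, Pir, Hk3, Cidea, Hoxd3os1, Nr0b1, Otor and Cthrc1 are not given with values. Members and lists were chosen with earlier results of these data known. Gene positions are from GENCODE on GRCm38, matched for 23375 of 24410 symbols. Replicate libraries differed by more than counting error. The labels do not say what a replicate number shares. Same-numbered libraries of MUT D11 and WT D11 deviated from their group means together (r = 0.27 in p2 and 0.25 in pM over genes). With 2 libraries a group, both numbers give the same value, so this rests on 1 value per domain. Blocked values are given for that comparison as an alternative. Same-numbered MUT p2 and pM libraries correlated at 0.35.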

Additional observations from a re-analysis of the deposited data

How the results depend on the processing

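Of the genes called against WT D9, all that could be tested kept their sign in every alternative, which share libraries with the main comparison. The medians of 18 of 39 lists changed sign in 1 or more of 24 alternatives: motor neurons ranged from -0.44 to 0.90, the oligodendrocyte lineage from -0.49 to 0.81, radial glia from -0.05 to 0.44, Hox genes from -0.23 to 0.11, Wnt genes from -0.25 to 1.18, the Notch pathway from -0.01 to 0.37 and cholesterol synthesis from -0.30 to 0.01. The count of 1617 was 2772 with DESeq2 on recovered reads, 4076 with the replicate block, 319 with a correlation of 0.34 estimated between libraries sharing genotype, day and number, 2 with replicate 1 alone for WT D9, 31 without both WT D9 replicate 2 libraries, 1 in p2 alone and 22 in pM alone. It was 3691 without both MUT replicate 2 libraries and 74 without both MUT replicate 3 libraries, which were chosen after seeing the data. Leaving out 1 library gave 252 to 3065: 252 without MUT pM replicate 3, 266 without MUT p2 replicate 3, 459, 481, 517 and 604 without WT D9 p2 replicate 3, pM replicate 3, pM replicate 2 and p2 replicate 2, and 3065 without MUT p2 replicate 2. Against WT D11, 78 became 383 with DESeq2, 553 with the replicate block, 27 with the correlation and 335 with all 66 libraries, and 30 to 90 when 1 library was left out: 30 and 45 without WT D11 p2 replicates 2 and 3, 36 and 32 without WT D11 pM replicates 2 and 3, and 48 without MUT pM replicate 2. In WT from D9 to D11, 1834 became 2753 with DESeq2, 4546 with the replicate block, 869 with the correlation and 583 with replicate 1 alone, and 976 to 2668 when 1 library was left out: 1058 and 976 without WT D11 replicate 3 of p2 and of pM. The interaction gave 0 to 2, with 2 without MUT pM replicate 2 and 1 without WT D9 pM replicate 3. Fewer libraries enter several of these fits, and otherwise the cause was not tested. Deviations of same-numbered MUT D11 and WT D9 libraries correlated at 0.26 and -0.04 in p2 and 0.13 and -0.06 in pM. Those of WT D11 and WT D9 correlated at 0.18, 0.0028, 0.09 and -0.03. For MUT D11 with WT D11 the values were 0.27 in p2 and 0.25 in pM, which is 1 value per domain. Whether replicate numbers pair libraries is not settled by these values. Depth of 20.9 to 28.7 M reads limits genes near the minimum of 10.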

Other observations

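Signalling and stress genes moved in small numbers. Immediate early genes respond within minutes to a stimulus or to cell handling. Of 12 such genes, none was higher and 2 were lower in MUT D11 than in WT D11, beside 0.0570% and 0.499% of all genes. Fos had a mean of 2050 in MUT D11, 2579 in WT D9 and 8612 in WT D11, a log2 difference of -2.14 ± 0.27 (SE) from WT D11 (n = 4 and 4, limma adjusted p = 0.00494). Egr1 had means of 600.2, 871 and 2231 in the same order (-1.88 ± 0.21 from WT D11, limma adjusted p = 0.00192). Neither passed against WT D9, where Ier3 was the 1 gene of the list called, as higher (2.29 ± 0.40, n = 4 and 6, limma adjusted p = 0.00898), beside 6.02% of all genes. The part of cell handling was not tested.

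Of 20 Notch pathway genes, the ligand genes Dll1, Dll4 and Dner were higher than in WT D9 and none lower, beside 6.02% and 5.46% of all genes. The list's median was 0.24. Dll1 and Dll4 lost their calls in the correlated fit (adjusted p = 0.0632 and 0.0943 with an estimated correlation). Dner had a mean of 437 in MUT D11, 97.7 in WT D9 and 515 in WT D11. None of the 20 passed against WT D11 in limma, and 1 was higher with the replicate block. Of 15 Wnt genes, Lgr5, a receptor for R-spondins, was higher than in WT D9 (305 against 94.2 as means, limma adjusted p = 0.0174) and Sfrp2 was lower, beside 6.02% and 5.46% of all genes. Apcdd1, a Wnt inhibitor, was the 1 gene of that list that passed against WT D11, with means of 40.8 in MUT D11 and 424 in WT D11 (-3.80 ± 0.49, limma adjusted p = 0.00494, and 0.0535 with an estimated correlation). WT D9 stood at 19.0. Of 14 FGF genes, the ligand gene Fgf15 was higher than in WT D9 (1.92 ± 0.55, limma adjusted p = 0.0424), beside 6.02% of all genes. That call was lost in the correlated fit (adjusted p = 0.127 with an estimated correlation).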
